A study of Mus musculus with 19 samples.

Results

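The genes described here are the mouse Fos and Jun members of the AP-1 transcription factors together with Atf3, measured in cultured hippocampal neurons in which NMDA receptors, the glutamate-gated calcium channels of excitatory synapses, had been blocked. They were chosen by name as all probes annotated to Fos, Fosb, Fosl1, Fosl2, Jun, Junb, Jund (Jund1 in the older annotation) and Atf3, which gave 8 of the 19201 genes tested and 10 of the 41174 gene probes on the array. Dissociated mouse hippocampal neurons were kept for 21 days in culture and then exposed for 6 h to 100 µM AP5 (5 arrays), 100 nM NVP-AAM077 (NVP, 4 arrays), 1 µM of the compound labelled Ro25-4891 (Ro25, 5 arrays) or vehicle (5 arrays). No genotype or strain is part of the comparison, and the 4 groups share the same culture type, age and exposure time. AP5 competes with glutamate for its site on NMDA receptors in general, and NVP-AAM077 does so with some preference for those that contain GluN2A. The Ro25 label carries another number than the well-known GluN2B antagonist with that prefix, so the identity of that compound is not settled here. The doses differed between compounds, so no comparison between them is matched for dose. Whether the arrays of a group stem from separate cultures is not stated in the labels, so the p-values reflect the spread between arrays alone, and that spread may be technical.

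AP-1 is a pair of basic leucine zipper proteins bound to DNA. Jun proteins can pair with each other or with Fos proteins, whereas Fos proteins need a Jun partner. Atf3 pairs with Jun proteins and can also bind alone, often as a repressor. In neurons, Fos, Fosb and Junb are immediate early genes, transcribed within minutes of synaptic activity through calcium signalling to CREB and the serum response factor. Jun is transcribed through AP-1 and MEF2 sites, and Jun and Atf3 are known as genes induced in neurons by axon injury and cell stress.

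The promoters of Fos and Junb, which fell with AP5, and of Jun, Jund and Atf3, which rose, are shown so that the regulatory letters of both directions can be compared. These are the 5 members whose AP5 and vehicle arrays did not overlap. Each line gives the 250 bases before the annotated start in the RefSeq promoter table of the GRCm38.p6 build, read 5′ to 3′ on the gene's own strand. Capitals mark TGACG (the half-site of the CREB element) in Fos and Junb and the TATA box in Fos. In Jun they mark TTACCTCA (an ATF site), then TGACATCA (a variant of the CREB element) and a MEF2 box. In Atf3 they mark a MEF2 box and TTACGTCA. Jund, which also rose, held none of the motifs searched and has no capitals.
Fos (chr12:85473640-85473889, plus strand): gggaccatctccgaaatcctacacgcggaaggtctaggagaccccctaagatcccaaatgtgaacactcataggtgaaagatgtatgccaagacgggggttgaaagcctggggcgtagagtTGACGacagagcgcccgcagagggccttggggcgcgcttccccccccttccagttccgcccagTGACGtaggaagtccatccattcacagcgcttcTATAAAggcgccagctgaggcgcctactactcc
Junb (chr8:84978749-84978998, minus strand): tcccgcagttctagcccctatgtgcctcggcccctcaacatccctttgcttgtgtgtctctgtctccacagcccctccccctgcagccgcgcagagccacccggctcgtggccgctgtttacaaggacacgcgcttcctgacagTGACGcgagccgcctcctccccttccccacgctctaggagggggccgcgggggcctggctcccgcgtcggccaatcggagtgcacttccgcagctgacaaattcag
Jun (chr4:95052223-95052472, minus strand): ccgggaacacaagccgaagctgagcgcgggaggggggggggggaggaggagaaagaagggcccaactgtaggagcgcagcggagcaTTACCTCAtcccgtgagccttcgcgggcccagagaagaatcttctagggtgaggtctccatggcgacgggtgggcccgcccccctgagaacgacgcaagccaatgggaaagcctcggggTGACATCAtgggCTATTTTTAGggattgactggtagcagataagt
Jund (chr8:70697489-70697738, plus strand): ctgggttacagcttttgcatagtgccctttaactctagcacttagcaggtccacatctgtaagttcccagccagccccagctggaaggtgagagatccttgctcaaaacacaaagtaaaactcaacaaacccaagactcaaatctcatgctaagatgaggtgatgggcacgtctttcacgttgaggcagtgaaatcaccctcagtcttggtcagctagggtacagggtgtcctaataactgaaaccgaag
Atf3 (chr1:191183334-191183583, minus strand): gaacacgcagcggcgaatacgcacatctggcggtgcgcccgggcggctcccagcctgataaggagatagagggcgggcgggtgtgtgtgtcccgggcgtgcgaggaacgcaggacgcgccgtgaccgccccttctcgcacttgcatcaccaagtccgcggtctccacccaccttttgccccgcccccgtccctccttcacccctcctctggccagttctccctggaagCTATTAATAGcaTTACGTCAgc

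The table held windows for 7 of the 8 members, all but Fosl1. Both strands of all 7 were searched for the full CREB element TGACGTCA and its half-site TGACG, for the variants TGACNTCA (any central base) and TTACNTCA (an ATF site), and for the AP-1 element TGANTCA. The TATA box TATAAA, the MEF2 box and the CArG box of the serum response factor were searched too. The Fos window held TGACG at 129 to 125 and at 66 to 62 bases before the start and TATAAA at 33 to 28. The Junb window held TGACG at 106 to 102. In Jun, TTACCTCA lay at 164 to 157, TGACATCA at 45 to 38 and the MEF2 box at 33 to 24, and no TGACG was present. In Atf3 a MEF2 box lay at 22 to 13 and TTACGTCA at 10 to 3, and its last letters are also TGACG on the opposite strand, at 7 to 3. The windows of Fosl2 and Jund held none of these motifs, and the Fosb window overlapped the annotated span of the gene, so its match is not described. Among all 32851 promoters of that table, windows of the same length held TGACG in 17.8%, TGACNTCA in 7.49%, TTACNTCA in 2.86%, the MEF2 box in 0.508% and TATAAA in 12.4%. TGACGTCA (1.55%), TGANTCA (6.75%) and the CArG box (1.47%) were not found in any of the 7 windows. These absences hold only for the exact letters searched and for the 250 bases shown. Sites further upstream were not searched, so a promoter may hold these elements there. A match is a description of letters only and does not show that a factor was bound in these neurons.

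Each array set neuron RNA, labelled with Cy5 (red), against 1 common universal mouse reference RNA, labelled with Cy3 (green). The values below are log2 ratios of red over green, so a value under 0 means less of the transcript in the neurons than in the reference. All 10 member probes were well above background in red on all 19 arrays. The probes of Fos and Jun were each spotted 10 times on an array, and the others once. A total of 18% of all genes (3464 of 19201) differed between AP5 and vehicle at an adjusted p under 0.05, whereas limma called 0 genes for NVP or Ro25 against vehicle. All 10 neuron markers were well above background on every array, and their mean log2 ratio was 4.58 in the AP5, 4.49 in the NVP, 4.48 in the Ro25 and 4.29 in the vehicle group. All 15 astrocyte markers were also well above background on every array, at 3.53, 3.49, 3.38 and 3.37 in the same groups. The neuron marker means ran from 4.51 to 4.65 on AP5 arrays and from 4.10 to 4.44 on vehicle arrays, without overlap. Fewer cells of a type and less RNA per cell cannot be told apart in such bulk samples. On 1 array of each group (AP5 5, NVP 4, Ro25 3 and vehicle 3) these 15 markers averaged only 2.47 to 2.67, against 3.35 to 4.07 on the other 15 arrays. These 4 arrays stood apart for several members too, and the members' values without them are given beside the results. Slide was tied to treatment: slide 1 held only AP5, slide 5 only vehicle, and no slide held both AP5 and vehicle.

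After AP5, the Fos transcript fell and those of Jun, Jund and Atf3 rose, while smaller falls of Junb and Fosl1 also passed the test. In all, 3 of the 8 members were higher (10.8% of all genes were) and 3 were lower (7.22% of all genes were), and Fosb and Fosl2 did not pass. For 5 members (Fos, Junb, Jun, Jund and Atf3) no AP5 array lay within the vehicle range, as was true of 11.9% of all genes. The members were chosen with earlier results of these data known, so these counts are descriptions only.

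Fos, the founding Fos family member and an activity marker in neurons, had log2 ratios of -3.52, -3.06, -3.20, -3.36 and -3.83 on the 5 AP5 arrays. On the 5 vehicle arrays they were -2.32, -2.77, -2.76, -2.48 and -2.27. Every AP5 array lay below every vehicle array, and the lowest of them was AP5 5, which was also the AP5 array lowest in astrocyte markers. The means were -3.39 ± 0.30 with AP5 and -2.52 ± 0.24 with vehicle (SD, n = 5 each). The log2 fold change was -0.87 (SE 0.18, 95% interval -1.25 to -0.49, limma adjusted p = 0.00250), which is 1.83-fold lower. Without the 4 arrays low in astrocyte markers it was -0.82 (adjusted p = 5.96e-04). The probe position is chr12:86366053-86366112, plus strand, in mm8, the assembly the array files use.

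Fosb (probe at chr7:18461650-18461709, mm8), which encodes a Fos protein and the truncated ΔFosB, had log2 ratios of -1.77, -1.84, -1.87, -1.84 and -1.79 with AP5. With vehicle they were -1.38, -1.88, -1.15, -1.60 and -1.18. The AP5 arrays were tightly grouped and low, but vehicle 2 was lower than all of them, so the groups overlapped. The log2 fold change of -0.38 (SE 0.15, 95% interval -0.69 to -0.07) did not pass (limma adjusted p = 0.0808). Leaving out vehicle 2 gave -0.49 (adjusted p = 0.0214), the one left-out array with which Fosb passed.

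Fosl1 and Fosl2 encode the Fos-related antigens Fra-1 and Fra-2. Fosl1 had log2 ratios of -3.26, -3.34, -3.43, -3.28 and -3.17 with AP5, against -3.21, -3.08, -2.84, -3.16 and -3.13 with vehicle. The groups overlapped at 1 array each, AP5 5 and vehicle 1. Its probe maps to chr19:5455496-5455555 (mm8). The fall of 0.21 on the log2 scale (SE 0.07, limma adjusted p = 0.0437) was small and lay next to the threshold. It lost the call in 7 of the 10 fits that left out 1 array, and its log2 fold change was 0.14 when log ratios were brought to 1 spread between arrays.
Fosl2 had 2 probes on chromosome 5. Its brighter probe, at chr5:32433832-32433891 (mm8), ranged from -1.02 to 0.10 with AP5 and from -1.01 to 0.06 with vehicle. Its log2 fold change was 0.04 (SE 0.27, 95% interval -0.52 to 0.60, limma adjusted p = 0.943), and that interval holds changes as large as those of Jun or Jund. The second probe gave -0.16 (SE 0.10, adjusted p = 0.277), so the probes differed in sign and neither passed. On the 4 arrays low in astrocyte markers the brighter Fosl2 probe read 0.10 (AP5 5), -0.12 (NVP 4), 0.13 (Ro25 3) and 0.06 (vehicle 3), the highest value of each group.

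**Figure D1:**
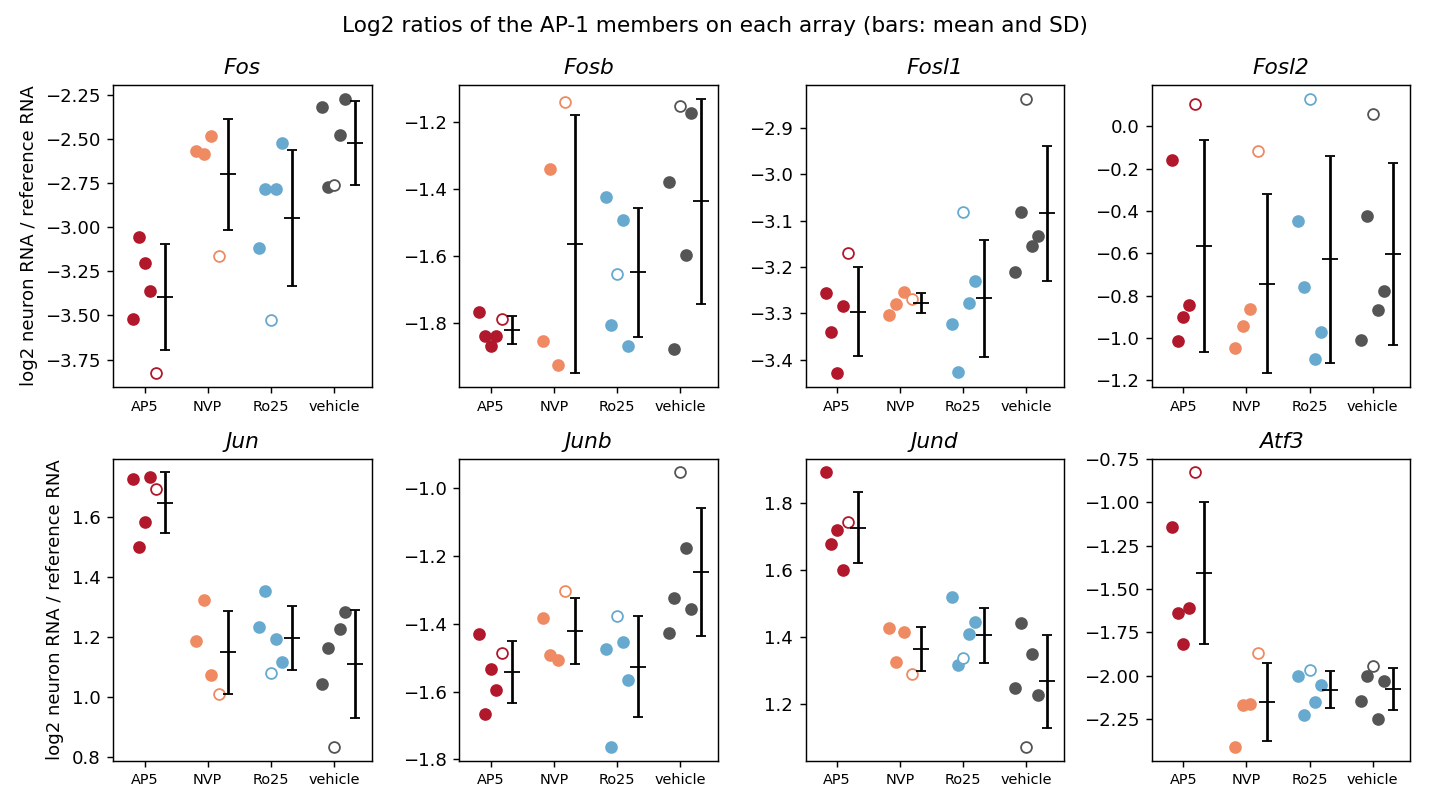
Log2 ratios of neuron RNA over reference RNA (vertical axes) for the 8 members, with 1 point per array, grouped on the horizontal axes as AP5, NVP, Ro25 and vehicle; black bars give the mean and SD, and open points are the array of each group lowest in astrocyte markers. AP5 points lie below all vehicle points for Fos and Junb and above all other groups' points for Jun, Jund and Atf3.

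Jun (probe at chr4:94541191-94541250, mm8), the founding family member whose protein JNK phosphorylates, had log2 ratios of 1.73, 1.50, 1.58, 1.73 and 1.69 with AP5, against 1.04, 1.16, 0.83, 1.23 and 1.28 with vehicle. The lowest AP5 array was above the highest vehicle array, and the arrays low in astrocyte markers held the lowest vehicle value but an ordinary AP5 value. The log2 fold change was 0.54 (SE 0.08, 95% interval 0.36 to 0.71, limma adjusted p = 1.92e-04), a 1.45-fold rise. In the fits that left out 1 array, Jun stayed between 0.47 and 0.58 and passed each time.

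Jund (probe at chr8:73629526-73629585, mm8), a broadly expressed Jun family member that is not usually an early response gene, had log2 ratios of 1.89, 1.68, 1.72, 1.60 and 1.74 with AP5. With vehicle they were 1.25, 1.44, 1.07, 1.35 and 1.23, again with no overlap. Its log2 fold change of 0.46 (SE 0.07, 95% interval 0.32 to 0.60, limma adjusted p = 1.19e-04) is a 1.38-fold rise. None of its spots was marked as saturated on any array.

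Junb (brighter probe at chr8:87867087-87867146, mm8), an activity-induced Jun family member that can restrain Jun, had log2 ratios of -1.43, -1.67, -1.53, -1.60 and -1.49 with AP5, against -1.43, -1.32, -0.95, -1.18 and -1.36 with vehicle. The groups did not overlap, but AP5 1 and vehicle 1 were almost equal. The fall was 0.30 on the log2 scale (SE 0.09, 95% interval -0.47 to -0.12, limma adjusted p = 0.0213). The second Junb probe, at chr8:87867049-87867108 and so overlapping the first, gave -0.22 (SE 0.09) and did not pass (adjusted p = 0.108). Without vehicle 3, the highest vehicle array, the change of the first probe was -0.22 (adjusted p = 0.0580). It was -0.20 (adjusted p = 0.274) with Agilent's own ratio and -0.14 (adjusted p = 0.504) when log ratios were brought to 1 spread, so the call of Junb also depends on the scaling. Within the Jun family, 2 members were therefore higher after AP5 and 1 was lower.

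Atf3 (probe at chr1:192871283-192871342, mm8), the stress-induced ATF/CREB family member, had log2 ratios of -1.14, -1.64, -1.82, -1.61 and -0.83 with AP5, against -2.15, -2.00, -1.95, -2.25 and -2.03 with vehicle. All AP5 arrays were above all vehicle arrays, and AP5 arrays were more spread than vehicle arrays, with SDs of 0.41 and 0.12. AP5 5 and AP5 1 were the highest. The log2 fold change was 0.67 (SE 0.14, 95% interval 0.37 to 0.97, limma adjusted p = 0.00341), a 1.59-fold rise. Without AP5 5 it was 0.53, and without the 4 arrays low in astrocyte markers it was 0.56 (adjusted p = 0.00432). The Atf3 value of each of those 4 arrays was the highest of its group, while the Fos value was the lowest of its group for AP5 5, NVP 4 and Ro25 3 and the second lowest for vehicle 3. The part of cell composition in the changes of Fos and Atf3 was not tested beyond the fit without these arrays. Neuron markers were also higher with AP5 than with vehicle, and their part in the rises of Jun, Jund and Atf3 was not tested.

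Without the 4 arrays low in astrocyte markers, limma called the same 6 members for AP5 against vehicle. Beside Fos and Atf3 (above), the log2 fold changes were then 0.46 for Jun, 0.41 for Jund, -0.24 for Junb (adjusted p = 0.0497) and -0.18 for Fosl1 (adjusted p = 0.0389). Fosb (-0.32) and Fosl2 (0.04) again did not pass. Bringing log ratios to 1 spread between arrays gave a smaller change for Fos (-0.56) and Jund (0.30), and both passed.

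Slide and treatment cannot be told apart for AP5 against vehicle. With slide as a fixed block, where the contrast runs only through AP5 5, vehicle 2 and the arrays on linking slides, 0 members passed in limma. The log2 fold changes were then -1.40 for Fos, 1.44 for Atf3, 0.54 for Jun, 0.09 for Jund, -0.22 for Junb and -0.03 for Fosl1. When marked spots were kept while the background was fitted, Jun and Jund kept their calls, and Fos (-0.75, adjusted p = 0.0922) and Atf3 (0.68, adjusted p = 0.0506) did not pass.

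**Figure D2:**
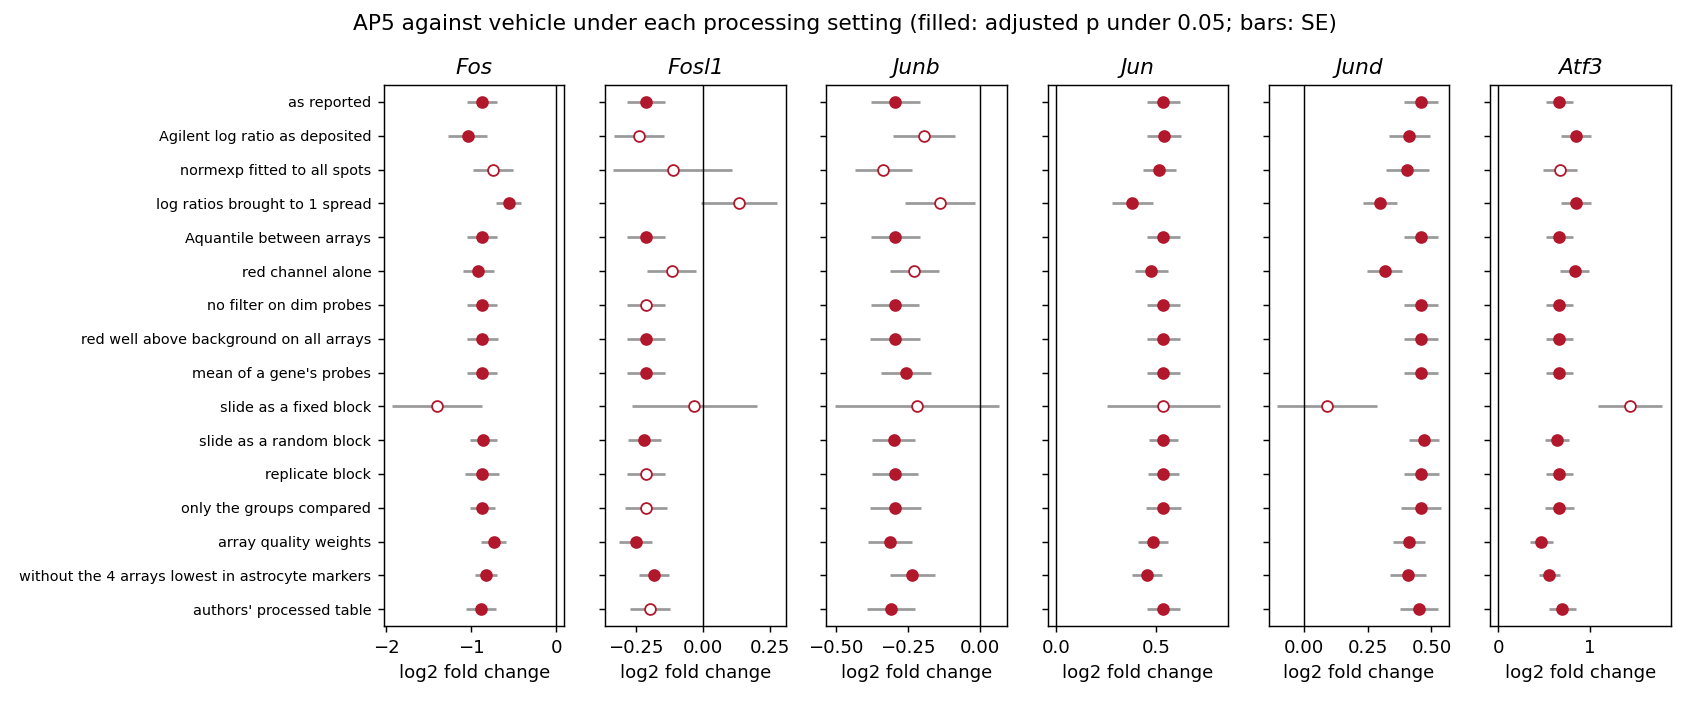
Log2 fold change of AP5 against vehicle (horizontal axes) for the 6 members that passed, under each processing setting (rows); points are filled where the adjusted p is under 0.05 and grey bars are standard errors. Fos stays below 0 and Jun, Jund and Atf3 stay above 0 in every row, whereas Fosl1 reaches 0.14 when log ratios are brought to 1 spread.

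The reference RNA carries no treatment, so its channel was compared between groups as well. Its signals were first normalized by loess together with red, so they are not free of the neuron signal. In green signal alone, Fos was lower by 0.14 on the log2 scale (adjusted p = 0.0260) and Atf3 higher by 0.10 (adjusted p = 0.0357) on AP5 than on vehicle arrays, and the other 6 members did not pass. A lower green signal raises the ratio, so both differences make the ratio change smaller than the change in red signal. Green signal went the other way for Junb (0.10, limma adjusted p = 0.0696) and Jund (-0.11, limma adjusted p = 0.102). For these members the ratio change was larger than the change in red signal. In red signal alone, the log2 fold changes were -0.92 for Fos, 0.48 for Jun, 0.32 for Jund and 0.84 for Atf3, all past the threshold (limma adjusted p of 0.00474 or less). Red signal alone gave -0.23 for Junb (adjusted p = 0.101) and -0.12 for Fosl1 (adjusted p = 0.485), so the calls of those 2 members rest on the ratio.

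NVP gave no member change that passed. limma called 0 of the 8 members against vehicle, as it called 0% of all genes, and at an unadjusted p under 0.05 it counted 1 member (Fosl1) beside 8.29% of all genes. Fos had log2 ratios of -2.57, -2.59, -2.49 and -3.17 on the 4 NVP arrays, within the vehicle range except for NVP 4. Its difference from vehicle was -0.18 (SE 0.19, 95% interval -0.58 to 0.22), and -0.02 without NVP 4. Without the 4 arrays low in astrocyte markers 0 members passed in limma, and the differences ran from -0.20 (Fosb) to 0.07 (Jund), with Fos at -0.08. Jun differed by 0.04 (95% interval -0.14 to 0.22), Jund by 0.10 (-0.05 to 0.25) and Atf3 by -0.08 (-0.40 to 0.24). For Jun and Jund these intervals lie below the rises seen with AP5 (0.54 and 0.46). Fosl1 differed by -0.19 (95% interval -0.35 to -0.04, adjusted p = 0.471), and its 4 NVP arrays (-3.30, -3.28, -3.25 and -3.27) lay below all vehicle arrays, as did 1.09% of all genes. Junb differed by -0.17 (95% interval -0.36 to 0.01), Fosb by -0.13 (-0.46 to 0.20) and Fosl2 by -0.14 (-0.73 to 0.45).

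Ro25 likewise gave 0 of 8 members and 0% of all genes in limma, with 3 members (Fos, Fosl1 and Junb, all lower) at an unadjusted p under 0.05 beside 6.16% of all genes. Fos had log2 ratios of -3.12, -2.79, -3.53, -2.79 and -2.52 on the 5 Ro25 arrays, so 4 of them lay below the lowest vehicle array at -2.77. The difference was -0.43 (SE 0.18, 95% interval -0.80 to -0.05, adjusted p = 0.753), and it was -0.28 without Ro25 3. Junb read -1.47, -1.76, -1.38, -1.45 and -1.57 with Ro25 and differed from vehicle by -0.28 (SE 0.09, 95% interval -0.46 to -0.10, adjusted p = 0.549), close to its -0.30 with AP5. Fosl1 differed by -0.18 (95% interval -0.33 to -0.04, adjusted p = 0.727). Jun (0.09, 95% interval -0.09 to 0.26), Jund (0.14, 0.00 to 0.28) and Atf3 (-0.01, -0.31 to 0.30) showed no change past the test. The intervals of Jun, Jund and Atf3 end below the values of 0.54, 0.46 and 0.67 seen with AP5. Fosb differed by -0.21 (-0.52 to 0.10) and Fosl2 by -0.03 (-0.58 to 0.53). Without the 4 arrays low in astrocyte markers Fos differed by -0.34, Junb by -0.24 and Fosl1 by -0.17, and 0 members passed in limma. All 3 comparisons share the vehicle arrays, so likeness between them is not independent.

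**Figure D3:**
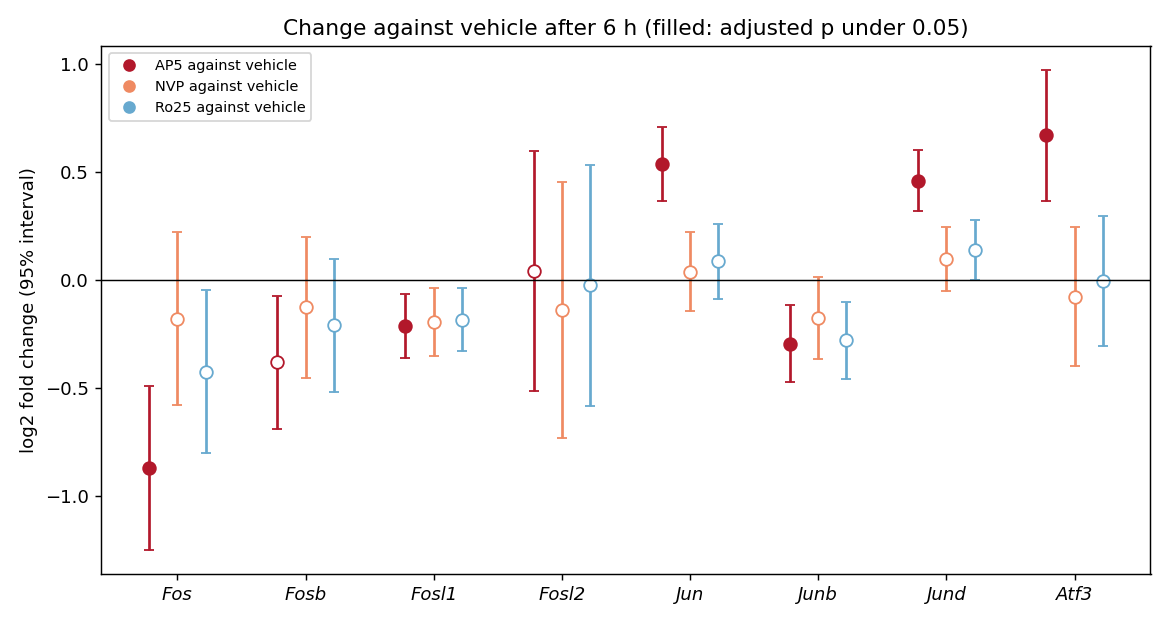
Log2 fold change against vehicle with its 95% interval (vertical axis) for the 8 members (horizontal axis), with AP5, NVP and Ro25 in 3 colours and filled points where the adjusted p is under 0.05. Filled points occur only for AP5: Fos, Fosl1 and Junb below 0 and Jun, Jund and Atf3 above 0.

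Compared directly, AP5 differed from NVP for 4 of 8 members (4.24% of all genes did) and from Ro25 for 3 of 8 (6.06% of all genes did). In these 2 comparisons and in NVP against Ro25, p-values are from the same limma fit, adjusted over all genes. Jun was higher with AP5 than with NVP by 0.50 (SE 0.09, adjusted p = 0.00168) and than with Ro25 by 0.45 (SE 0.08, adjusted p = 0.00190). Jund was higher with AP5 than with NVP by 0.36 (SE 0.07, adjusted p = 0.00430) and than with Ro25 by 0.32 (SE 0.07, adjusted p = 0.00569). Atf3 was higher by 0.75 (SE 0.15, adjusted p = 0.00618) than with NVP and by 0.68 (SE 0.14, adjusted p = 0.00693) than with Ro25. For all of these 3 genes every AP5 array lay above every NVP array, as for 5.08% of all genes, and above every Ro25 array, as for 4.37% of all genes. Over 15 processing alternatives none of these differences turned sign. Against NVP and against Ro25 alike, the call was lost in 1 alternative for Jun, 2 for Atf3 and 3 for Jund. Jund was 0.25 against NVP in red signal alone (limma adjusted p = 0.0532). Against Ro25 it was 0.23 when log ratios were brought to 1 spread (limma adjusted p = 0.0611).

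Fos behaved otherwise in the direct comparisons. It was lower with AP5 than with NVP by 0.69 on the log2 scale (SE 0.19, adjusted p = 0.0461), a call lost in 7 of the 9 fits that left out 1 array. Against Ro25 the difference was -0.45 (SE 0.18, 95% interval -0.83 to -0.07) and did not pass (adjusted p = 0.174). Without the 4 arrays low in astrocyte markers Fos passed against Ro25 as well, with 4 members called in place of 3. For Fosb, Fosl1, Fosl2 and Junb, differences between AP5 and the other antagonists were -0.25 to 0.18 and none passed. NVP and Ro25 did not differ for any of the 8 members in limma, beside 0% of all genes. At an unadjusted p under 0.05 it was again 0 members and 1.56% of all genes. The intervals of NVP minus Ro25 were -0.16 to 0.65 for Fos, -0.23 to 0.14 for Jun, -0.19 to 0.11 for Jund and -0.39 to 0.25 for Atf3.

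Ordered by mean log2 ratio, Fos was lowest with AP5 (-3.39), then Ro25 (-2.95), NVP (-2.70) and vehicle (-2.52), and no 2 neighbours in that order differed past the test. Jun was highest with AP5 (1.65), then Ro25 (1.20), NVP (1.15) and vehicle (1.11), and of these steps only that between AP5 and Ro25 passed. Jund had the same order, at 1.73, 1.40, 1.36 and 1.27, again with only the step between AP5 and Ro25 past the test. Atf3 was at -1.41 with AP5, -2.15 with NVP and -2.08 with both Ro25 and vehicle.

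Some slides held arrays of a pair of groups. On slide 2, Fos was -3.83 on AP5 5 and averaged -2.53 on the 2 NVP arrays. On AP5 5 and those NVP arrays, Jun was 1.69 against 1.13, Jund 1.74 against 1.42 and Atf3 -0.83 against -2.29. All 4 differences had the sign of the pooled ones, but AP5 5 was the array low in astrocyte markers and the most extreme AP5 array for Fos and Atf3. Of the other members on slide 2, the difference was 0.10 for Fosb and 0.11 for Fosl1, opposite in sign to the pooled values, 1.06 for Fosl2 and -0.04 for Junb. On slide 4, Fos averaged -2.94 on the 3 Ro25 arrays against -2.77 on vehicle 2, and Junb -1.57 against -1.32. The other differences on slide 4 were 0.10 for Fosb and -0.08 for Jund, both opposite in sign to the pooled values, and -0.17 for Fosl1, -0.11 for Fosl2, 0.02 for Jun and -0.08 for Atf3. On slide 3, NVP minus Ro25 (2 arrays each) ran from -0.16 for Jund to 0.24 for Fosl2.

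**Figure D4:**
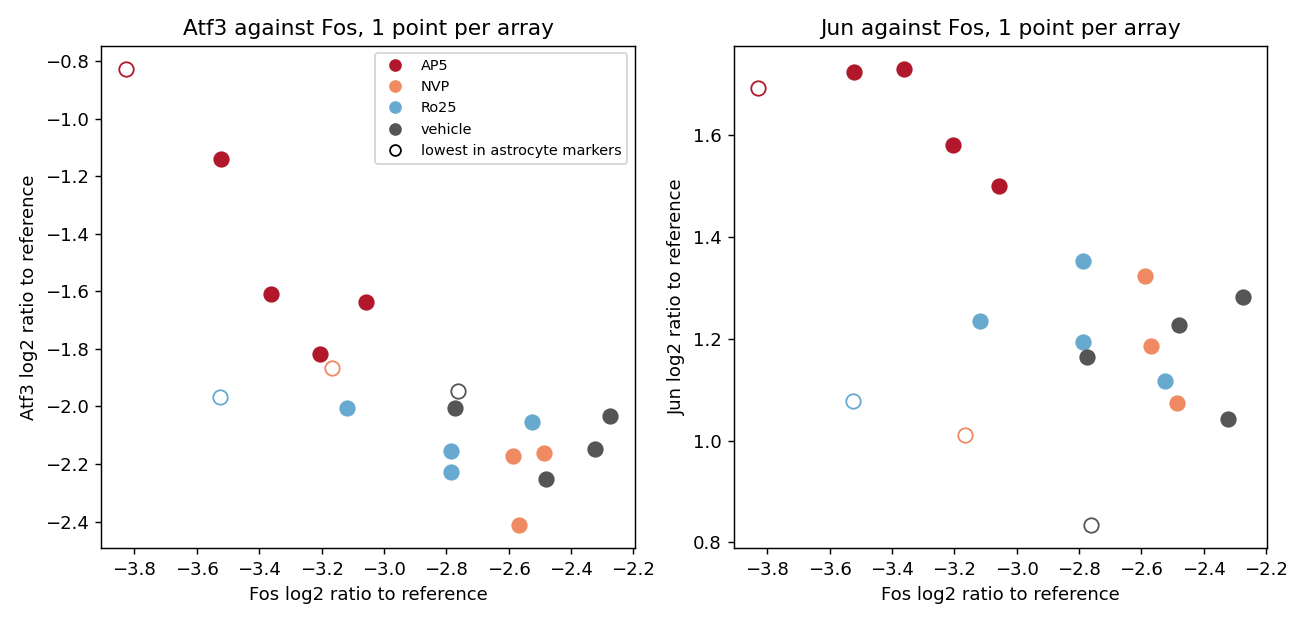
Log2 ratio of Atf3 (left panel, vertical axis) and Jun (right panel, vertical axis) against that of Fos (horizontal axes), with 1 point per array, colours for AP5, NVP, Ro25 and vehicle, and open points for the 4 arrays lowest in astrocyte markers. AP5 arrays lie at low Fos with high Jun and Atf3, and deviations from group means correlate with those of Fos at -0.67 for Atf3 and 0.20 for Jun.

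Within groups, some members deviated opposite to Fos and others did not. Over deviations from group means on the 19 arrays, Pearson's r with Fos was -0.92 for Fosl2, -0.67 for Atf3, -0.62 for Junb and -0.60 for Fosl1, but 0.20 for Jun and 0.03 for Jund. The 4 arrays low in astrocyte markers carry much of the spread of Fos and Fosl2, and arrays of a group share slides. Deviations of Jun and Atf3 had an r of -0.07, although the 5 AP5 arrays were the highest of all for both genes. These correlations describe these arrays and were given no test.

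The genes whose log2 ratios followed Fos most closely over the 19 arrays were Pdgfc, Naglu and Trib1, each with r of 0.93. For Fosb they were Kdm2a, Fam167b and Fyb (0.88 each), for Jun Slc17a5, Runx1t1 and Dennd2a (0.94, 0.93 and 0.93), and for Atf3 Slc16a1, Gpn3 and Dpm3 (each 0.95). Slc16a1 encodes the monocarboxylate transporter MCT1. Over deviations from group means the nearest genes were different for 3 of the 4 members: Parp3, Hsd3b7 and Lgals3bp for Fos (0.96 each), Cyp3a41a, Foxd2os and Adamtsl1 for Fosb (0.95, 0.93 and 0.90), and Bcr, Meis2 and Deptor for Jun (0.90, 0.89 and 0.89). For Atf3, Slc16a1 (0.94) was again among the nearest, with Fam43a (0.94) and Orc5 (0.93). All were picked as the highest of 15237 candidates, so high r values come partly from that choice, and they were given no test.

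Like the members, the gene lists below were chosen with earlier results of these data known. Their counts stand beside the share of all genes as description only, not as a test of the lists. Of 29 other immediate early genes measured, 14 fell (48.3%, beside 7.22% of all genes) and 3 rose (10.3%, beside 10.8% of all genes) after AP5. Their median log2 fold change was -0.20, beside 0.01 over all genes. Nr4a1, an orphan nuclear receptor induced by activity, fell by 1.45 (SE 0.08), and Npas4, a neuron-specific activity-regulated factor, fell by 1.33 (SE 0.13), although only 1 of the 5 AP5 arrays had red signal well above background for it. Gadd45g, a growth arrest and DNA damage gene, rose by 0.80 (SE 0.05). Fos and Junb fell on the same arrays, and Fosb, at -0.38, did not pass.

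Among 24 other bZIP genes that can pair with or compete with AP-1, 4 rose (16.7%, against 10.8% of all genes) and 3 fell (12.5%, against 7.22%) after AP5, with a median of 0.01. Jdp2, a repressor that pairs with Jun, fell by 0.37 (SE 0.06), and the small Maf factor Mafk fell by 0.52 (SE 0.09). Nfe2l1, a cap'n'collar factor, rose by 0.29 (SE 0.05). Of 20 genes of the JNK pathway upstream of Jun, 4 rose (20%, against 10.8% of all genes) and 3 fell (15%, against 7.22%), with a median of -0.08. Mapk10, the neuronal kinase JNK3, rose by 0.42 (SE 0.07) at its brighter probe, and the other gave 0.08. The scaffold gene Mapk8ip2 rose by 0.40 (SE 0.08), and Map3k5, the kinase ASK1, fell by 0.47 (SE 0.07).

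Of 20 ERK, SRF and CREB regulators of Fos, 4 rose (20%, against 10.8% of all genes) and 2 fell (10%, against 7.22%), with a median of -0.04. The kinase gene Rps6ka5 (MSK1), whose protein phosphorylates CREB and histone H3, rose by 0.62 (SE 0.08), whereas its relative Rps6ka4 (MSK2) fell by 0.27 (SE 0.06). Creb1 rose by 0.32 (SE 0.07), with its 3 probes between 0.03 and 0.32. Of 18 AP-1 target genes, 1 rose (5.56%, against 10.8% of all genes) and 3 fell (16.7%, against 7.22%), with a median of -0.12. These 4 of 18 are a share near the 18% of all genes that passed. The AMPA receptor subunit gene Gria2 rose by 0.38 (SE 0.06; 3 probes between 0.05 and 0.38), the cyclin gene Ccnd1 fell by 0.18 (SE 0.05), and the metalloproteinase gene Mmp9 fell by 0.19 (SE 0.06).

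All 6 measured Jun targets known from neuronal death passed, beside 18% of all genes, with 4 higher and 2 lower and a median of 0.35. Pmaip1 (Noxa) and Bbc3 (Puma), which encode BH3-only proteins that promote apoptosis, rose by 1.07 (SE 0.08) and 0.54 (SE 0.11). Dusp1, a phosphatase that acts on MAP kinases and is itself an immediate early gene, fell by 0.46 (SE 0.08). Of 19 axon injury genes known to move with Jun and Atf3, 5 rose (26.3%, against 10.8% of all genes) and 1 fell (5.26%, against 7.22%), with a median of 0.10. Gadd45a rose by 0.61 (SE 0.07) and Ddit3, the stress factor CHOP, by 0.32 (SE 0.07). Sox11 rose by 0.67 (SE 0.13) at its brightest probe, while its 6 probes ran from 0.00 to 0.67. In none of these 7 lists did limma call a gene for NVP or Ro25 against vehicle. Beside these changes, 4 of 10 neuron markers (40%), 2 of 15 astrocyte markers (13.3%) and 2 of 10 oligodendrocyte lineage markers (20%) were higher with AP5 than with vehicle, against 10.8% of all genes. Of 9 microglia markers 3 were lower (33.3%, against 7.22% of all genes), and 0 of 7 fibroblast and endothelial markers passed in limma. The part of cell composition in the list counts was not tested.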

How the data were processed

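RNA was measured on 19 two-colour Agilent mouse arrays (AP5 5, NVP 4, Ro25 5, vehicle 5), without dye swap. Per the file headers, spot intensity in both channels was deposited from Feature Extraction 9.5.3.1, while the submitters' processing notes name version 11.0. Probe positions are those of mm8, per the file headers. Alternatives used the log10 ratio deposited by Feature Extraction and the authors' processed log2 values. These values correlated with the ratios computed here at 0.9986 or more over 20674 probes, so they are log2 of red over green. Their centring is not given in the sources used here (column medians 0.0345 to 0.0478).

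Spots marked as non-uniform or outliers were removed, background was corrected by normexp (offset 50), and ratios were normalized by loess within arrays. A gene was represented by its brightest probe with red well above background on at least 4 arrays (28640 probes, 19201 genes). Symbols came from RefSeq tables, and the gene spots had median red signals of 135.5 to 177.8 per array. The number of arrays limits the precision. limma 3.58.1 (R 4.3.3, with the packages statmod, version 1.5.0, and data.table, version 1.17.8) fitted all arrays with a mean per group, with two-sided tests, Benjamini-Hochberg adjustment over all genes within each comparison and a threshold of 0.05. In simulated data for AP5 against vehicle over 18288 genes, 100% of 2-fold changes and 84% of 1.41-fold changes were recovered. Of the 187 calls in it, 3 were false. Its noise was independent between arrays and held no slide effect, so it does not cover the tie of slide to treatment. No pair of arrays held duplicate data.

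Replicate numbers did not pair the arrays: deviations of same-numbered arrays correlated at -0.62 to 0.77 over 27 pairs, with a mean of -0.09. Members and lists were chosen with earlier results of these data known. All members were named, with up to 3 called genes per list of smallest p and the 3 genes most like Fos, Fosb, Jun and Atf3. Sequences came from RefSeq promoter tables (GRCm38.p6). Alternatives covered background correction, scaling, channel, filter, probe choice, slide and replicate blocks, the arrays fitted, array weights, arrays low in astrocyte markers, the deposited table and each left-out array.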

Additional observations from a re-analysis of the deposited data

Results flagged for a closer look

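One array stood apart from the rest of its group for a member. Fos was at -3.17 on NVP 4, against -2.59 to -2.49 on the other 3 NVP arrays. Of the 40 probe and group combinations tested this way, 1 was so far from the rest, and chance alone gives about 1 in 20. NVP 4 was also the NVP array lowest in astrocyte markers (mean log2 ratio 2.67), and the part of that in its Fos value was not tested.

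The antagonists differed from each other for some members. AP5 against NVP gave log2 differences of 0.75 for Atf3, -0.69 for Fos, 0.50 for Jun and 0.36 for Jund, and AP5 against Ro25 gave 0.68 for Atf3, 0.45 for Jun and 0.32 for Jund (limma adjusted p of 0.0461 or less). The doses were not matched, and 4 of the 5 AP5 arrays were on a slide with no other group.

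The channel of the reference RNA, which had no treatment but was normalized together with red, also differed between AP5 and vehicle arrays. In it, Atf3 was higher by 0.10 and Fos differed by -0.14 on the log2 scale (limma adjusted p = 0.0357 and 0.0260), and 767 of 19201 genes passed there.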

How the results depend on the processing

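The signs of Fos, Jun, Jund, Junb and Atf3 for AP5 against vehicle held in all the alternatives run, and calls changed mainly with slide and with the spots used to fit the background. With slide as a fixed block, 10 genes and 0 members passed for AP5 against vehicle, 190 and 1 (Atf3) against NVP, and 23 and 0 against Ro25, where single arrays carry the contrast. Fitting normexp to all spots gave 842, 274 and 433 genes and 2, 1 and 1 members for the same comparisons. Red signal alone gave 2046 genes for AP5 against vehicle. Array weights gave 1550 genes against NVP, 1851 against Ro25 and 12 for NVP against vehicle. Fitting only the groups compared gave 518 genes and 2 members for AP5 against NVP. Replicate numbers did not pair the arrays, and only 2 of 19 arrays correlated best with their own number. With the replicate block AP5 against NVP gave 530 genes, and Fosl1 lost its call against vehicle (adjusted p = 0.0575). Without the 4 arrays low in astrocyte markers, 1 gene passed for Ro25 against vehicle. As a random block, slide had a consensus correlation of -0.08, and Fosb then passed for AP5 against vehicle (adjusted p = 0.0401).

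Leaving out each array gave 2610 to 3494 genes and 4 to 6 members for AP5 against vehicle, 524 to 810 and 3 to 4 for AP5 against NVP, and 870 to 1115 and 3 to 4 for AP5 against Ro25. The lowest count against NVP, 524, came without NVP 2. NVP against vehicle gave 0 to 4 genes and Ro25 against vehicle 0 to 2, the highest in both without vehicle 2, with 0 members each.

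Signs turned only for values that had not passed, except Fosl1. For AP5 against vehicle these were Fosb with slide fixed (0.42), Fosl1 at 1 spread (0.14), and Fosl2 with Agilent's ratio (-0.014), the mean of its probes (-0.060) and array weights (-0.17). For NVP against vehicle they were Atf3 (0.067), Fosl1 (0.029) and Jun (-0.044) at 1 spread, and Fosb (0.32), Fosl2 (0.13), Jun (-0.027) and Jund (-0.23) with slide fixed. For Ro25 against vehicle, Atf3 was 0.046 with Agilent's ratio, 0.23 with normexp on all spots, 0.10 at 1 spread, 0.059 in red alone, 0.0095 with slide random and 0.0063 with array weights. With normexp on all spots Fosb was 0.10, Fosl1 0.21 and Fosl2 0.069, Fosl2 was 0.0077 at 1 spread and 0.0058 with slide random, and with slide fixed Fosb was 0.10 and Jund -0.077. Leaving out an array turned Fosl2 (-0.13 to 0.21 for AP5, -0.35 to 0.027 for NVP, -0.22 to 0.14 for Ro25), Atf3 (-0.17 to 0.0093 for NVP, -0.049 to 0.032 for Ro25) and Jun (-0.030 to 0.084 for NVP). The causes were not tested.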
